A study of Mus musculus with 6 samples.

Results

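The Ifit family (interferon-induced proteins with tetratricopeptide repeats) of the mouse was examined in primary microglia (PM). Its members were the genes with the symbols Ifit1, Ifit2, Ifit3, Ifit3b, Ifit1bl1 and Ifit1bl2 in the count tables, 6 of 24411 genes. PM were collected by shaking mixed glial cultures from the brains of newborn ICR mice. One group of 3 libraries came from PM treated with GSK-J4 (10 μM) for 4 h, and the other group of 3 libraries from PM that received LPS (10 ng/ml) as well as GSK-J4 (10 μM) for 4 h. GSK-J4 is an inhibitor of the H3K27 demethylases, JMJD3 among them, and LPS is the bacterial lipopolysaccharide that is sensed by TLR4. Both groups carried the inhibitor, so each fold change is the response to LPS in its presence. PM without GSK-J4 and the BV-2 cell line were not analysed here.

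LPS acts on TLR4 through the adaptors TRIF and MyD88, and the TRIF branch leads through IRF3 to transcription of interferon-β. Interferon-β then acts on its receptor IFNAR, and the factors this activates bind the interferon-stimulated response element (ISRE) in front of their target genes. Ifit genes are among the classical targets, and IRF3 can also act on them directly. Their proteins are built from tetratricopeptide repeats and are cytosolic antiviral effectors. Ifit1 binds RNA whose 5′ end lacks the methylation that marks the host's own capped RNA, Ifit2 binds RNA and restricts viral infection in the brain, and Ifit3 forms complexes with other members.

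All 6 genes were protein-coding in the GENCODE annotation of mm10 and lay in one cluster of 99.3 kb, chr19:34550694-34650009. From the start of the cluster they were Ifit2 (chr19:34550694-34576419, plus strand), Ifit3 (chr19:34583531-34588731, plus), Ifit1bl1 (chr19:34592891-34601956, minus), Ifit3b (chr19:34607970-34613401, plus), Ifit1bl2 (chr19:34617049-34640743, minus) and Ifit1 (chr19:34640871-34650009, plus). Ifit1bl2 and Ifit1 were transcribed away from each other, and their annotated start sites were 128 bases apart. The coding sequences of Ifit3 and Ifit3b were 99.1% identical, with 11 differences in 1209 bases. Those of Ifit1bl1 and Ifit1bl2 were 87.5% identical, those of Ifit1 and Ifit1bl2 73.5%, and those of Ifit1 and Ifit1bl1 73.4%. Every other pair was between 50.3 and 55.7% identical.

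The DNA in front of the members is shown because the data concern a response to LPS. In 5 of the 6 members it holds letters that match the core of the ISRE. The first sequence is the whole interval between the GENCODE start sites of Ifit1bl2 and Ifit1, read 5′ to 3′ on the plus strand (chr19:34640744-34640870). The others are the stretches that end at the RefSeq start sites of Ifit3 (chr19:34583364-34583528, plus strand), Ifit3b (chr19:34607757-34607956, plus), Ifit1bl1 (chr19:34601969-34602098, minus) and Ifit2 (chr19:34550564-34550693, plus), each on the strand of its gene. Sequences are from RefSeq on GRCm38.p6, which is mm10, and capitals mark each match to the core of the ISRE, GAAANNGAAA, on either strand.
Ifit1bl2 to Ifit1: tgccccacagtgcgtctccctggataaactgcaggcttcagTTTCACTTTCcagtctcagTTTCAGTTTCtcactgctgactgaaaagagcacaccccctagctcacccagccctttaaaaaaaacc
Ifit3: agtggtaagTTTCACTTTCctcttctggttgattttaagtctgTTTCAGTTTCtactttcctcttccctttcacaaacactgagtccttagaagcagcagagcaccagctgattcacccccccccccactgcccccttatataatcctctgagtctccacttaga
Ifit3b: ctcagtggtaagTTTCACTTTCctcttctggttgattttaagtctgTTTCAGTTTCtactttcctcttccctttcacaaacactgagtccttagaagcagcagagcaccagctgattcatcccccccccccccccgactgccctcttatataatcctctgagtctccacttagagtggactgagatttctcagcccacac
Ifit1bl1: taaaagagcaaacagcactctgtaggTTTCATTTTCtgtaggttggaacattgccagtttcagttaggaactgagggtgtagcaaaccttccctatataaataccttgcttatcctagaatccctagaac
Ifit2: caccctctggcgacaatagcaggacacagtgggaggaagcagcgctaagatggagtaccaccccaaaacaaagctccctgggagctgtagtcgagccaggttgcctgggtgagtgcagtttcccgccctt

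In the 250 bases before a start site, the ISRE core was found in 5 of 6 members, Ifit2 being the exception, and in 3.46% of the 27025 genes in the RefSeq table. At least 2 cores, overlapping ones included, were found in 59 of 32851 windows (0.180%), and Ifit1, Ifit1bl2, Ifit3 and Ifit3b were among these. Those of Ifit1 and Ifit1bl2 are the same DNA, since both windows cover the interval between these genes. Read on the strand of Ifit1, Ifit3 and Ifit3b, the same 2 decamers stood in the same order, TTTCACTTTC and then TTTCAGTTTC. In front of Ifit1 they were 9 bases apart, at -104 to -95 and -85 to -76 from its RefSeq start site, chr19:34640889, which lies beyond the end of the printed interval. In front of Ifit3 and Ifit3b they were 24 bases apart, from -156 and from -188 onwards, respectively. The windows of Ifit3 and Ifit3b could be aligned over 224 columns, 217 of them identical (96.9%). Ifit1bl1 had the core TTTCATTTTC once before each of its 2 RefSeq start sites, at -104 to -95 in the sequence shown and at -23 to -14 before the inner one. Ifit1bl2 had no core before its inner start site. The TATA box letters TATAAA were found in 2 of 6 members, Ifit1bl1 and Ifit1bl2, and in 14.3% of genes. For Ifit1bl2 they stood only before its inner start site, not in the printed interval. A match describes these letters in these windows only, and these data hold no measurement of binding.

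The libraries held 2597505 to 3472716 fragments on genes. The ribosomal RNA precursor Rn45s made up 22.2 to 32.4% of these in the GSK-J4 libraries but 45.8 to 48.1% in those with LPS as well, with TMM factors of 1.05 to 1.31 and 0.821 to 0.832, respectively. Levels are given as CPM, counts divided by the library's total after TMM scaling, and 3 counts in a library, the lowest level treated as measured, came to between 0.673 and 1.24 CPM. The summed level of 10 microglial markers ran from 3233 to 3304 CPM in the GSK-J4 group and from 2507 to 2611 CPM in the LPS + GSK-J4 group. In the same order of groups, that of 8 astrocyte markers ran from 53.9 to 59.4 and from 131 to 159 CPM. That of 8 oligodendrocyte lineage markers ran from 182 to 212 and from 352 to 402 CPM, and that of 6 neuronal markers from 16.99 to 21.3 and from 39.7 to 51.5 CPM. For 6 fibroblast and mural markers the ranges were 80.1 to 281 and 138 to 427 CPM. No marker of any list was at 0 throughout, and the part of these shifts in the results for the Ifit genes was not tested. Replicate 3 stood apart from replicates 1 and 2 in both groups by a chi-square over genes. It was taken on counts scaled by each library's total, with Rn45s kept in and without TMM. Per degree of freedom it was 2.21 between GSK-J4 replicates 1 and 2 but 13.5 and 13.9 against replicate 3. In LPS + GSK-J4 it was 2.48 against 6.44 and 6.52. Rn45s made up 22.2, 22.3 and 32.4% in GSK-J4 replicates 1, 2 and 3, and its part in these values was not tested. The number of Ifit genes called was 5 with all libraries, 5 without GSK-J4 replicate 3 and 5 without LPS + GSK-J4 replicate 3. In bulk RNA, more cells of a type and more RNA per cell cannot be told apart.

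The Ifit family as a whole was higher in every library with LPS. Values per library are listed below in the order of replicates 1, 2 and 3. Summed over the 6 genes, the GSK-J4 libraries had 68, 67 and 25 counts, and the LPS + GSK-J4 libraries 1077, 1086 and 777. These were 16.04, 15.04 and 9.17 CPM against 420, 414 and 321 CPM. The 2 groups did not overlap. The mean rose from 13.4 ± 3.71 to 385 ± 55.8 CPM (SD, n = 3), 28.7-fold. A 2-sided exact permutation test returned p = 0.1, below which 3 libraries against 3 cannot go. Single genes with enough counts were tested by edgeR's quasi-likelihood method, and p values were adjusted after Benjamini and Hochberg over 10133 genes. A gene was called where the adjusted p did not exceed 0.01 and the log2 fold change reached 1.5 in either direction.

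**Figure D1:**
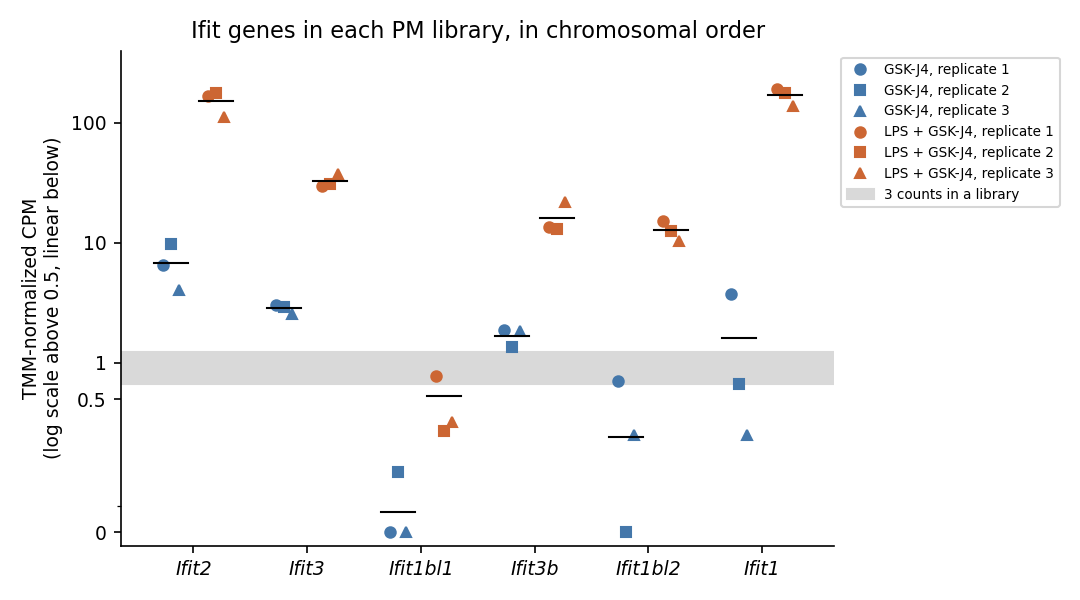
TMM-normalized CPM of the 6 Ifit genes (x axis, in chromosomal order) in the 3 GSK-J4 libraries (blue) and the 3 LPS + GSK-J4 libraries (orange). Symbols stand for replicates, black lines for group means, and the grey band for the level of 3 counts in a library, between 0.673 and 1.24 CPM. The groups are farthest apart for Ifit1, and the Ifit1bl1 points of both groups lie in or below the band.

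Ifit1, the sensor of foreign 5′ ends, had 16, 3 and 1 counts in GSK-J4 and 492, 470 and 335 counts in LPS + GSK-J4. These were 3.77, 0.673 and 0.367 CPM against 192, 179 and 138 CPM. The groups did not overlap, and GSK-J4 replicate 1 stood above the other 2 libraries of its group. The fitted increase was 95.5-fold, a log2 fold change of 6.58 (SE 0.33, edgeR adjusted p = 5.17e-10), the sixth largest of the 10133 genes tested. DESeq2 gave 6.64 with a larger SE, 0.80. Without GSK-J4 replicate 1 the edgeR value was 8.15 on the log2 scale, since only 4 counts then remained in the group. That library also had the highest summed level of fibroblast and mural markers in its group, 281 CPM against 80.1 and 94.2 CPM. Across LPS + GSK-J4 replicates 1, 2 and 3 the same sum was 138, 241 and 427 CPM. Ifit1 ran in the opposite order there, and the part of these markers in the Ifit1 count was not tested. From the pooled counts alone, 1297 against 20, the ratio was 97.4 with an exact 95% interval of 62.8 to 160, which covers counting error only.

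Ifit1bl2, a paralog of Ifit1 that starts in the opposite direction from the same interval, had 3, 0 and 1 counts in GSK-J4 and 39, 33 and 25 counts in LPS + GSK-J4. These were 0.708, 0 and 0.367 CPM against 15.2, 12.6 and 10.3 CPM. The groups did not overlap, but all GSK-J4 values were at or below 3 counts. The pooled counts, 97 against 4, gave a ratio of 36.4 with an exact 95% interval of 13.8 to 136. The fitted log2 fold change, which rests on these 4 counts in GSK-J4, was 5.03 (SE 0.51, edgeR adjusted p = 2.32e-06). Without GSK-J4 replicate 1 it was 6.13, with only 1 count left in the group. DESeq2 gave 5.13 with a larger SE, 0.83. In LPS + GSK-J4, replicate 1 was highest and replicate 3 lowest, as for Ifit1.

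Ifit2 was the member with the highest counts in GSK-J4 and the only one with at least 10 counts in every library. It had 28, 44 and 11 counts in GSK-J4 and 433, 466 and 272 counts in LPS + GSK-J4. These were 6.61, 9.88 and 4.03 CPM against 169, 178 and 112 CPM. The groups did not overlap, and replicate 2 was the highest and replicate 3 the lowest in both. The mean rose from 6.84 ± 2.93 to 153 ± 35.5 CPM (SD, n = 3). The fitted increase was 21.3-fold, a log2 fold change of 4.41 (SE 0.24, edgeR adjusted p = 1.61e-09).

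Ifit3, whose protein forms complexes with other Ifit proteins, had 13, 13 and 7 counts in GSK-J4 and 76, 82 and 91 counts in LPS + GSK-J4. These were 3.07, 2.92 and 2.57 CPM against 29.7, 31.3 and 37.6 CPM. The groups did not overlap, and the GSK-J4 values were close together. The mean rose from 2.85 ± 0.257 to 32.8 ± 4.18 CPM (SD, n = 3). The fitted increase was 11.2-fold, a log2 fold change of 3.49 (SE 0.24, edgeR adjusted p = 2.43e-08). Unlike Ifit1, Ifit1bl2 and Ifit2, which were lowest in LPS + GSK-J4 replicate 3, Ifit3 was highest there.

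Ifit3b, the near-identical copy of Ifit3, had 8, 6 and 5 counts in GSK-J4 and 35, 34 and 53 counts in LPS + GSK-J4. These were 1.89, 1.35 and 1.83 CPM against 13.7, 13.0 and 21.9 CPM. The groups did not overlap, and LPS + GSK-J4 replicate 3 was the highest, as for Ifit3. The mean rose from 1.69 ± 0.298 to 16.2 ± 4.96 CPM (SD, n = 3). The fitted increase was 9.46-fold, a log2 fold change of 3.24 (SE 0.35, edgeR adjusted p = 4.18e-06). STAR counts only fragments that map to 1 place, and 31.3% of the 101-base windows of the Ifit3 exons and 27.1% of those of Ifit3b occur in the other gene. Levels of both genes are therefore uncertain and too low. For Ifit1, Ifit1bl2 and Ifit1bl1 this share was 3.21, 2.82 and 0.464%, and no window of Ifit2 was shared.

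Ifit1bl1 had 0, 1 and 0 counts in GSK-J4 and 2, 1 and 1 counts in LPS + GSK-J4. Both groups were below the level of 3 counts in every library, so it was not tested and no fold is given. Its neighbours in the cluster, Ifit3 and Ifit3b, were both called. Without a filter on low counts it was not called either (edgeR adjusted p = 0.403). A change, small or large, could have gone undetected at these counts.

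Of the 6 members, 5 were called higher in LPS + GSK-J4, against 2.95% of all genes tested, and 0 were called lower, against 0.809%. In CPM, the LPS + GSK-J4 libraries were all above the GSK-J4 libraries for each of the 6 members, Ifit1bl1 at levels below 3 counts, and for 19.8% of the genes tested. Of these members, Ifit1, Ifit3, Ifit3b and Ifit1bl2 had fewer than 10 counts in at least 1 GSK-J4 library and passed the filter through the LPS + GSK-J4 group. The count of called members is for this reason a description and not evidence about the family. With at least 10 counts required in every library, Ifit2 was the 1 member tested, and it was called. At a looser threshold, an adjusted p up to 0.05 and a log2 fold change from 1, the number of members called was again 5, beside 8.33% of all genes in the higher direction.

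Levels of different genes were compared as CPM per kilobase of exon (RPKM). Exon lengths were taken from GENCODE, whereas the annotation used for counting is not given. Orders and shares per length depend on these lengths. In LPS + GSK-J4 the order was Ifit1 (64.0 ± 10.6 RPKM), Ifit2 (39.0 ± 9.05), Ifit3 (18.8 ± 2.40), Ifit3b (8.09 ± 2.48), Ifit1bl2 (3.78 ± 0.728) and Ifit1bl1 (0.232 ± 0.0982), each a mean and SD of 3 libraries. Neighbours in this order did not overlap, and each pair was in this order in 3 of 3 libraries. In GSK-J4 the order was Ifit2 (1.74 ± 0.746 RPKM), Ifit3 (1.63 ± 0.147), Ifit3b (0.845 ± 0.149), Ifit1 (0.604 ± 0.710), Ifit1bl2 (0.106 ± 0.105) and Ifit1bl1 (0.0331 ± 0.0573). Here Ifit3 and Ifit3b did not overlap, and every other pair of neighbours did. Ifit2 was above Ifit3 in 1 of 3 of these libraries, and the levels of Ifit3 and Ifit3b are too low because of their shared windows. Ifit1 was thus the highest of the family per length with LPS, and its range in GSK-J4, 0.138 to 1.42 RPKM, held the whole range of Ifit3b, 0.673 to 0.944 RPKM.

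The make-up of the family differed accordingly. Of the sum of all 6 genes per exon length, Ifit1 made up 23.6, 4.86 and 3.77% in the 3 GSK-J4 libraries and 50.2, 47.8 and 44.7% in the 3 LPS + GSK-J4 libraries. Every LPS + GSK-J4 value was above every GSK-J4 value, and the mean rose from 10.8 ± 11.2 to 47.6 ± 2.74% (SD, n = 3). Ifit3 made up 29.2, 32.1 and 40.2% and then 11.8, 12.7 and 18.5%, again without overlap, in the opposite direction. Ifit3b made up 15.7, 12.9 and 25.0% and then 4.74, 4.60 and 9.40%. The share of Ifit2, 27.97, 48.2 and 28.1% and then 29.9, 32.1 and 24.6%, overlapped between the groups. Shares of one sum are not independent of each other, and no test was made of them.

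**Figure D2:**
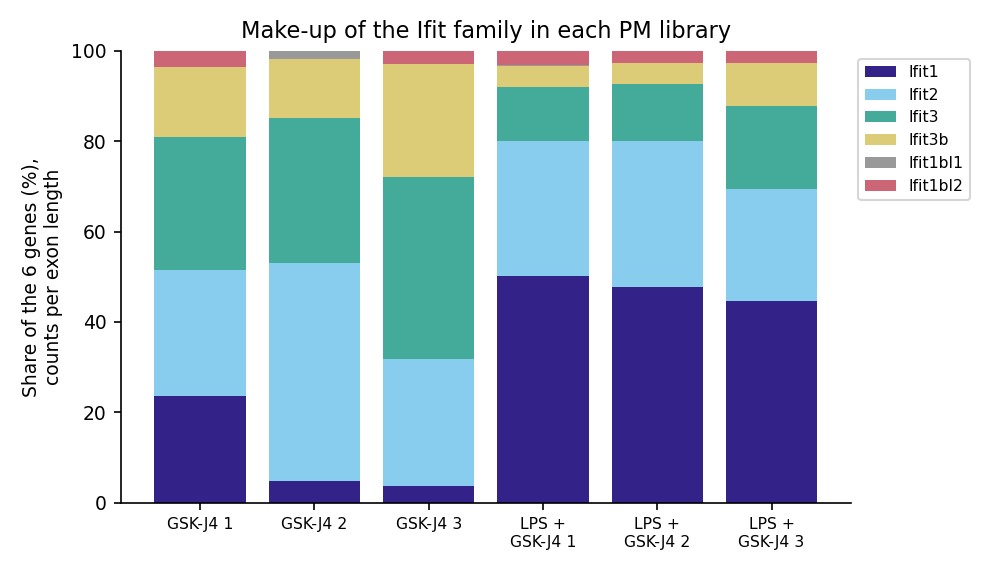
Share of each Ifit gene in the summed counts per exon length of the 6 genes (y axis, percent), for each library (x axis). Ifit1 takes 3.77 to 23.6% of the sum without LPS and 44.7 to 50.2% with LPS, while the share of Ifit3 is smaller in all 3 LPS + GSK-J4 libraries.

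Whether one member rose more than another was tested on the ratio of their counts within a library, which needs no scaling. The 4 members with a mean of at least 3 counts in each group gave 6 pairs. There were 0.571, 0.0682 and 0.0909 counts of Ifit1 for each count of Ifit2 in GSK-J4, and 1.14, 1.01 and 1.23 in LPS + GSK-J4. The groups did not overlap. Log2 ratios were taken after 0.5 was added to each count. That of Ifit1 to Ifit2 was higher by 2.63 (SE 0.87) with LPS, or by 2.45 with 1 added instead. Against Ifit3 and Ifit3b, the log2 ratio of Ifit1 was higher by 3.68 (SE 0.85) and 4.01 (SE 0.91), also without overlap. These pairs share the 16, 3 and 1 counts of Ifit1 in GSK-J4. Each of the 3 differences with Ifit1 had a 2-sided exact permutation p of 0.1, the smallest possible, and an adjusted p of 0.2 over the 6 pairs. With 3 libraries against 3 no pair could have passed a threshold of 0.05, so these p values say nothing for or against a difference.

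The other 3 pairs overlapped between the groups. The log2 ratio of Ifit2 to Ifit3 differed by 1.05 (SE 0.44), and that of Ifit2 to Ifit3b by 1.38 (SE 0.67). For the near-identical pair, there were 1.63, 2.17 and 1.4 counts of Ifit3 for each count of Ifit3b in GSK-J4 and 2.17, 2.41 and 1.72 in LPS + GSK-J4, a difference of 0.32 (SE 0.23) on the log2 scale. The exact permutation p was 0.2 for each of these 3 pairs, and 0.2 after adjustment.

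**Figure D3:**
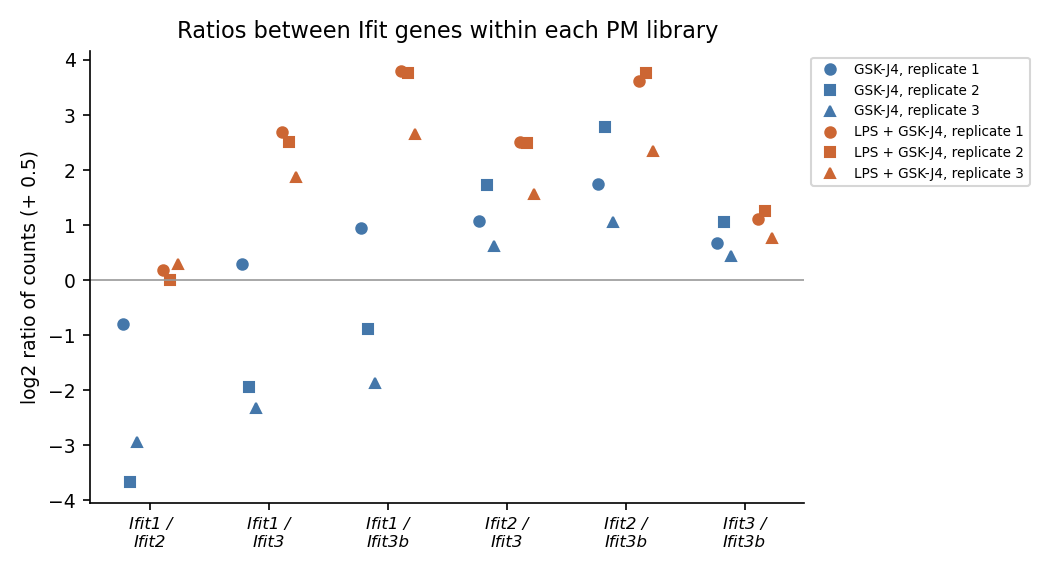
log2 ratio of the counts (+ 0.5) of 2 Ifit genes within each library (y axis), for the 6 pairs tested (x axis), with the GSK-J4 libraries in blue and the LPS + GSK-J4 libraries in orange. The 3 pairs with Ifit1 are separated between the groups, by 2.63 to 4.01 in the mean, and the other 3 overlap.

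The genes beside the cluster did not all move with it. Of the 13 genes within 500 kb on either side, 6 were tested and 1 was called higher, against 2.95% of all genes tested. This was Ch25h, which encodes the enzyme that makes 25-hydroxycholesterol and starts 75.5 kb before Ifit2. Ch25h had 9, 5 and 3 counts in GSK-J4 and 59, 41 and 69 counts in LPS + GSK-J4, without overlap, and passed the filter through the latter group. With at least 10 counts required in every library, 4 neighbours were tested and 0 called. Its call is for this reason a description. The log2 fold change of Ch25h was 3.87 (SE 0.35, edgeR adjusted p = 6.44e-07). Lipa, the lysosomal acid lipase gene between Ch25h and Ifit2, had a log2 fold change of -0.44 (SE 0.11, edgeR adjusted p = 0.0105), which did not pass the threshold. Acta2, the smooth muscle actin, passed the adjusted p (1.70e-05) but not the fold, with a log2 fold change of 1.37 (SE 0.17). Stambpl1, Pank1 and Kif20b were at 0.30, 0.45 and -0.18 on the log2 scale, and their adjusted p in edgeR ran from 0.309 to 0.783, and the median of the 6 was 0.37. The other 7 neighbours had too few counts to be tested.

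**Figure D4:**
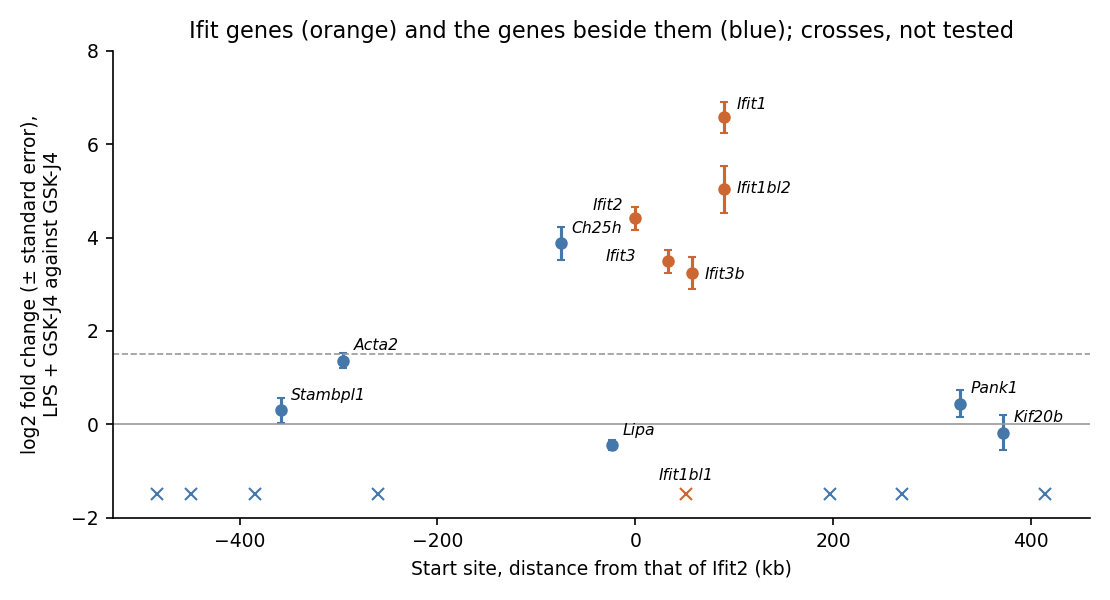
log2 fold change of LPS + GSK-J4 against GSK-J4 (y axis, bars are SE) of the Ifit genes (orange) and the genes within 500 kb of the cluster (blue), by the distance of their start sites from that of Ifit2 in kb (x axis). Crosses at the bottom mark genes with too few counts to be tested and carry no value, and the dashed line is the threshold of 1.5. Ch25h, at 3.87, is the 1 neighbour above the line, and Lipa, between Ch25h and Ifit2, is at -0.44.

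Upstream of the family, Ifnb1 was the 1 of 12 interferon genes that was tested. It had 1, 0 and 0 counts in GSK-J4 and 250, 234 and 189 counts in LPS + GSK-J4 (edgeR adjusted p = 1.69e-11). No fold is given because every GSK-J4 library was below 3 counts. The other 11, among them the interferon-α genes, Ifng and Ifnl2, had at most 1 count in any library.

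Of 20 genes of interferon induction and signalling, all were tested. Of these, 3 were called higher and 1 lower, against 2.95% and 0.809% of all genes tested. The median log2 fold change was 0.32, against 0.00 over all genes tested. Irf1, an interferon regulatory factor, rose from 231, 207 and 103 counts to 1206, 1123 and 1097 counts, with a log2 fold change of 3.27 (SE 0.14, edgeR adjusted p = 7.11e-11). The feedback inhibitors Socs1 and Usp18 rose by 2.55 (SE 0.44) and 1.54 (SE 0.27) on the log2 scale. Their adjusted p in edgeR was 4.57e-04 and 5.85e-04. Socs1 had 5, 5 and 2 counts in GSK-J4 and 16, 12 and 20 in LPS + GSK-J4, and passed the filter through the latter group. With at least 10 counts required in every library, 19 genes of this list were tested, 2 called higher and 1 lower. Usp18 lay near the threshold and was not called in 5 of 13 alternative fits, in which its value was between 1.26 and 1.49. Ticam2, the adaptor that links TLR4 to TRIF, fell by 1.76 on the log2 scale (SE 0.17, edgeR adjusted p = 1.65e-06). The receptor chains Ifnar1 and Ifnar2 had log2 fold changes of 0.07 and -0.03, and Irf3, Irf9 and Stat2 had 0.37, 0.62 and 0.45, none of them called. Irf7 (1.37), Cd14 (0.89) and Ticam1 (0.74), the genes of an interferon regulatory factor, the LPS co-receptor and TRIF, passed the adjusted p in edgeR (2.25e-04, 1.33e-05 and 0.00547) but not the fold.

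Of 36 other interferon-induced effectors, 34 were tested, 15 were called higher (44.1%, against 2.95% of all genes tested) and 0 lower. Genes low in GSK-J4 entered this count through the other group, and with at least 10 counts required in every library 8 of 26 effectors were called. The median log2 fold change was 1.28 and the range -0.20 to 6.59. Of 34 values 32 were above 0, against 5062 of all 10133 genes tested. In the same edgeR test 0 were lower at an unadjusted p under 0.05, against 1573 of all genes tested. DESeq2 called 14 higher and 0 lower, beside 254 and 89 of the 18016 genes it fitted. The largest increases were in Rsad2 (6.59), Oasl1 (5.98) and Isg15 (5.90), which encode viperin, an oligoadenylate synthetase-like protein and a ubiquitin-like modifier. Cmpk2 (5.48), Ifih1 (4.91), Gbp3 (4.61), Mx2 (3.87), Rtp4 (3.48), Gbp2 (3.31) and Ifi47 (3.02) followed on the log2 scale. Irgm1, Herc6, Oas1b, Parp14 and Xaf1 were between 1.60 and 2.03, of which Oas1b was not called in 4 of 12 alternative fits and Xaf1 in 2 of 13. Samhd1, which degrades deoxynucleotides, had the lowest value, -0.20 (SE 0.17, edgeR adjusted p = 0.461).

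Within this list, genes with related roles had unlike values. Mx2 was called at 3.87, whereas Mx1 was at 1.30 (SE 0.28, edgeR adjusted p = 0.00332), which passed the adjusted p but not the fold. Ifih1, a sensor of double-stranded RNA, was called at 4.91, and the sensors Ddx58 and Dhx58 were at 0.95 and 0.97 and not called. Oas1a, Oas2 and Oas3 were at 0.40, 0.32 and 0.92, not called, while Oas1b and Oasl1 were called. Differences between these genes were not tested. The log2 fold changes of Ifit1 and Ifit1bl2 stood beside those of Rsad2 and Ifih1, and those of Ifit3 and Ifit3b beside those of Rtp4 and Gbp2. That of Ifit1bl2 rests on 4 counts in GSK-J4.

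The order of the libraries within a group was compared for the members and the effectors. In GSK-J4, replicate 1 was highest for 4 of 5 members tested and for 19 of 34 effectors, and replicate 3 lowest for 3 of 5 and 18 of 34. In LPS + GSK-J4, replicate 3 was lowest for 3 of 5 members and highest for 20 of 34 effectors. Ifit3 and Ifit3b were highest in that library, as most effectors were. For the members, the order in GSK-J4 rests on few counts, such as 13, 13 and 7 for Ifit3 and 3, 0 and 1 for Ifit1bl2. The order was not counted over all genes tested, so one common to whole libraries cannot be told apart.

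The enzymes that make or remove the RNA 5′ ends to which Ifit proteins respond were measured as well. Of 7, 6 were tested and 0 were called by edgeR or by DESeq2. Over all genes tested, edgeR called 2.95% higher and 0.809% lower, so 0 of 6 does not set this list apart. In edgeR 0 passed an unadjusted p of 0.05, beside 1958 higher and 1573 lower of 10133 genes. The median of the 6 was -0.04 on the log2 scale. The values ran from -0.33 (SE 0.25) for Rnmt, the cap methyltransferase, to 0.34 (SE 0.24) for Rngtt, the capping enzyme. Pcif1 was at 0.00 and Dusp11, which removes 5′ phosphates, at -0.02. Cmtr1, which methylates the first transcribed nucleotide, had between 1 and 4 counts per library and was not tested.

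Of 16 genes for proteins reported to bind Ifit proteins, namely the subunits of translation factor eIF3, Mavs and Tomm70a, 14 were tested and 0 were called by edgeR or by DESeq2. Beside the 2.95% higher and 0.809% lower over all genes tested, 0 of 14 does not set this list apart either. In edgeR, 2 were higher and 1 was lower with an unadjusted p below 0.05, beside 1958 higher and 1573 lower of 10133 genes. The median of the 14 was 0.17 on the log2 scale. Eif3d, Eif3g and Eif3b had the highest values, 0.38 (SE 0.14), 0.35 (SE 0.15) and 0.26 (SE 0.15), and Mavs, the mitochondrial adaptor of the RNA sensors, the lowest, -0.45 (SE 0.19).

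**Figure D5:**
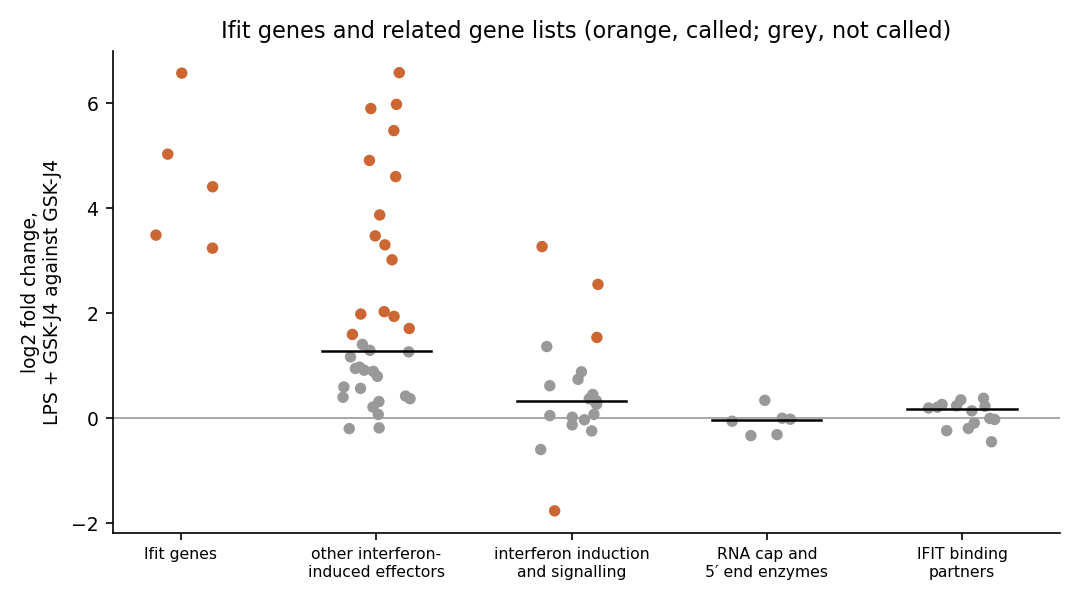
log2 fold change of LPS + GSK-J4 against GSK-J4 (y axis) for each gene tested in the Ifit family and in 4 related gene lists (x axis). Orange points are called and grey points are not, and black lines are medians, 1.28 for the effectors, 0.32 for induction and signalling, -0.04 for the cap enzymes and 0.17 for the binding partners.

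Genes outside the family were ranked by how near their profile over the 6 libraries came to that of the summed members, as the root mean square difference of centred log2 CPM. The nearest were Ccl2 (0.173), Nfkbiz (0.184), Ifih1 (0.195), Cxcl2 (0.259) and Gbp3 (0.338). Ccl2, a chemokine for monocytes, was at 3.39 ± 0.743 CPM without LPS and 116 ± 24.7 CPM with it (SD, n = 3). Nfkbiz, a nuclear cofactor of NF-κB, was at 37.3 ± 7.15 and 1219 ± 61.6 CPM. The likeness describes 6 libraries of 2 groups and was not tested.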

How the data were processed

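RNA-seq counts of 6 PM libraries were used, 3 per group, grouped and numbered by their titles in the labels. Per the submitters' processing notes, the authors used CASAVA 1.8.2, Trimmomatic 0.33, STAR 2.5.1 on mm10 and DESeq2, and they deposited raw counts of fragments per gene without normalization. The annotation used for counting is not given in the sources used here. Counts on the reverse strand, the one with the larger sum, were taken, since the kit was directional.

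Counts were scaled by TMM, filtered with filterByExpr (minimum count 10, minimum total 15) and tested with the robust quasi-likelihood test of edgeR 4.0.16 in R 4.3.3, with no covariate (common biological coefficient of variation 0.133). SE is the absolute log2 fold change divided by the square root of F. The SE from DESeq2 was larger for all 5 tested members, 0.80, 0.26, 0.36, 0.49 and 0.83 for Ifit1, Ifit2, Ifit3, Ifit3b and Ifit1bl2. The thresholds follow the methods of the study. The script was tested on simulated data. The study describes its PM replicates as biological, the labels name no cultures, and p values measure the spread between these libraries.

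The members, gene lists and tests were chosen with earlier results of these data known, and the motifs after the files were seen. Genes named are the members, Ifnb1, the 3 highest and the lowest of each list, every list gene called, and the 5 most alike in profile. Other list genes named (Acta2, Lipa, Stambpl1, Pank1, Kif20b, Ifnar1, Ifnar2, Irf3, Irf9, Stat2, Irf7, Cd14, Ticam1, Mx1, Ddx58, Dhx58, Oas1a, Oas2, Oas3, Pcif1, Dusp11 and Cmtr1) were chosen after their values were seen. Alternatives were unstranded counts, DESeq2 1.42.0 and its size factors, other filters and thresholds, removal of ribosomal features, a replicate block and each library left out. Python 3.11.15 was used for tables.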

Additional observations from a re-analysis of the deposited data

Results flagged for a closer look

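Fragments on the strand opposite to the 6 Ifit genes, which no comparison above used, amounted to 1, 2 and 1 in the GSK-J4 libraries and to 11, 7 and 4 in the LPS + GSK-J4 libraries, in replicate order, a mean of 7.33 with LPS against 1.33 without. They were picked out because they lay above the level in the libraries without LPS. Most were on Ifit2, with 1, 2 and 0 counts and then 5, 7 and 3 counts, and 5 were on Ifit1 in LPS + GSK-J4 replicate 1. Antisense fragments made up 1.45 to 3.85% of those on either strand of the 6 genes without LPS and 0.512 to 1.01% with LPS, beside 0.966 to 1.38% over all genes.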

How the results depend on the processing

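With at least 10 counts required in every library, 1 Ifit gene was called in place of 5, 8 effectors in place of 15, 0 genes beside the cluster in place of 1, and 176 higher and 56 lower genes among all genes in place of 299 and 82, because fewer genes were tested (8594). Genes beside the cluster called numbered 2 without a filter (Fas added) and 2 at the looser threshold (adjusted p up to 0.05, log2 fold change from 1), where 844 genes were called higher. With each library left out in turn, called Ifit genes stayed at 5, effectors ran from 13 to 17, induction and signalling genes from 3 to 5 beside 4, cap enzymes and binding partners stayed at 0 and neighbours at 1. The log2 fold changes ran from 6.12 to 8.15 for Ifit1, 4.21 to 4.78 for Ifit2, 3.38 to 3.56 for Ifit3, 2.97 to 3.38 for Ifit3b and 4.37 to 6.13 for Ifit1bl2. The log2 ratio differences ran from 2.03 to 3.47 for Ifit1 to Ifit2, 3.19 to 4.49 for Ifit1 to Ifit3, 3.37 to 4.79 for Ifit1 to Ifit3b, 0.79 to 1.36 for Ifit2 to Ifit3, 0.98 to 1.83 for Ifit2 to Ifit3b and 0.19 to 0.49 for Ifit3 to Ifit3b. None of the 5 Ifit fold changes and 6 ratios changed direction under the alternatives run for them. Same-numbered libraries of the 2 groups deviated together with correlations of -0.01, 0.12 and 0.30, and only those of number 3 each correlated best with their own number, so the numbers were not taken as pairs. With the replicate block, 5 Ifit genes, 15 effectors and 3 signalling genes were called, 306 and 90 genes in all, and the log2 fold change of Ifit1 was 6.62. The median log2 fold change of all genes tested was 0.00, -0.05 with DESeq2's size factors, and 0.13 by DESeq2 and 0.12 without a filter, where 18016 genes were fitted. Depth limits Ifit1bl1 and the GSK-J4 levels of Ifit1 and Ifit1bl2, which rest on 1, 20 and 4 counts.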
